A study of Mus musculus with 6 samples.

Results

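A set of 10 genes through which cells sense antibody was followed in sorted synovial fibroblasts, and 8 of the 10 had counts in a table of 24348 genes. They were chosen by name. Fcgrt encodes the heavy chain of FcRn, Trim21 encodes the cytosolic antibody receptor TRIM21, Fcgr1, Fcgr2b, Fcgr3 and Fcgr4 encode the Fcγ receptors of the cell surface, Fcer1g encodes the chain that activating Fcγ receptors signal through, and Syk, Plcg2 and Inpp5d encode enzymes downstream of them. Fcgr1 and Fcgr4 were not analysed here. The fibroblasts were sorted from the synovium, which lines the joint cavity, in adult wild-type C57BL/6 mice. The IC group of 3 libraries came from mice injected intravenously with immune complexes (IC), made of the antigen ovalbumin and a rabbit antiserum against it, and the vehicle group of 3 libraries from mice given the control injection. All mice were otherwise untreated as far as the labels say, and the comparison asks what circulating IC did to the fibroblasts. How the fibroblasts were gated, and whether each library was 1 mouse, is not given in the sources used here, so p-values measure the spread between these libraries. Total counts ran from 40114331 to 56714304 per library.

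An antibody is read at its constant end, the Fc, by several kinds of receptor. Activating Fcγ receptors bind IgG on the cell surface and signal through the γ-chain, SYK and phospholipase Cγ2, whereas FcγRIIb carries an inhibitory motif and recruits the lipid phosphatase SHIP-1, the product of Inpp5d. FcRn instead meets IgG in acidic endosomes, pairs with β2-microglobulin and returns the antibody to the surface, which protects it from lysosomes. TRIM21 is a ubiquitin ligase of the cytosol that binds the Fc of antibody carried into the cell on a particle and sends the complex to the proteasome, and its gene is known to respond to interferon. Classical Fcγ receptors are characteristic of macrophages and other leukocytes, whereas FcRn and TRIM21 are found in many cell types.

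The promoters of Trim21 and Fcgrt are shown because those 2 genes were the members with the highest levels per exon length and differed in an interferon-type motif. Each sequence starts 250 bases before the RefSeq gene start and ends 30 bases after it, on the strand of the gene (GRCm38.p6). Capitals mark the ISRE-type motif GAAANNGAAA, the letters bound by interferon-activated factors, searched on both strands.
Trim21, chr7:102565453-102565732, minus strand: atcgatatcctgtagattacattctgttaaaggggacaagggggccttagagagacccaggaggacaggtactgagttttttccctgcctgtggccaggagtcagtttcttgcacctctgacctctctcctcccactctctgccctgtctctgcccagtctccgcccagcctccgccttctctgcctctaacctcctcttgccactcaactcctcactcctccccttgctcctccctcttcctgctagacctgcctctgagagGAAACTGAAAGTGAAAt
Fcgrt, chr7:45103793-45104072, minus strand: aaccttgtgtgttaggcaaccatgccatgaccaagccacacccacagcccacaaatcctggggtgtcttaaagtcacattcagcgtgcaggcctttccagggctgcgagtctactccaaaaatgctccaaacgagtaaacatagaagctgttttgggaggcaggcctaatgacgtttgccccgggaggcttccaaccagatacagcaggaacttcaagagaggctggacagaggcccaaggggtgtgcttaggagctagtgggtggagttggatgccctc
The Trim21 window held 2 overlapping matches, which made 1 run of 16 bases that began 13 bases after the start. The Fcgrt window held none. Over 300-base windows that reach 50 bases past the start, 3.44% of 32851 RefSeq windows held the motif. Among the 12 windows of the 10 members it was found in those of Trim21 and of Fcgr4, where 1 match began 73 bases before the start. The shorter GAS-type motif TTCNNNGAA, which can overlap other motifs, was in 8.3% of all windows and, among the members, in that of Fcgr1 only, with 2 matches. A match is a match of letters and no measure of binding.

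The labelled cell type was checked against its markers. All 10 fibroblast markers were tested, and together they took 44500 to 46200 CPM (counts scaled to the same library total) in the IC libraries and 45400 to 55200 in the vehicle libraries. Single markers differed. Prg4 was higher in IC (log2 fold change 0.94, DESeq2 adjusted p = 0.0103). Col3a1 (-0.38, DESeq2 adjusted p = 0.00679) and Lum (-0.36, DESeq2 adjusted p = 0.0025) were lower. edgeR called 0 of the 10, and limma-voom called Prg4 alone (limma-voom adjusted p = 0.0339). Of 16 macrophage markers, 8 had counts, and their sum was 32.3 to 50.7 CPM in IC and 39.6 to 51.7 in vehicle. Most of that sum was Cd68 and Lyve1. The defining macrophage gene Csf1r had a mean normalised count of 55.1 ± 13.5 (SD, n = 3) in IC and 49.3 ± 20.6 (SD, n = 3) in vehicle. Mrc1 had 33 to 78 counts per library and Lyz2 had 22 to 136. C1qc reached 10 counts in 1 library and Cx3cr1 in 2, and C1qb did not in any library. Adgre1, C1qa, Ptprc, Itgam and Tyrobp were among the 8 markers not analysed here. Endothelial markers (10 of 10 with counts) summed to 211 to 285 CPM in IC and 280 to 338 in vehicle, and skeletal muscle markers (11 of 11) to 23.8 to 66.0 and 72.9 to 151. Lymphocyte markers (3 of 12 with counts) summed to 3.55 to 4.93 CPM in IC and 7.18 to 10.5 in vehicle, and neutrophil and mast cell markers (5 of 12) to 4.89 to 6.22 and 7.78 to 9.40. Muscle, lymphocyte and neutrophil and mast cell sums did not overlap between the groups. Taken singly, 15.8% of all tested genes did not overlap either. Endothelial sums overlapped, but 9 of 10 endothelial fold changes were below 0, with 2 genes lower at a DESeq2 adjusted p under 0.05. All 11 muscle fold changes were below 0, with 3 genes lower at that threshold. Over all tested genes 2.1% passed it in either direction and 49.6% of fold changes were above 0. edgeR called 0 genes of both lists, and limma-voom called the endothelial gene Kdr alone (limma-voom adjusted p = 0.0416). Most of the neutrophil and mast cell sum was Kit, with 4.31 to 5.77 CPM in IC and 7.50 to 9.12 in vehicle, while the neutrophil gene S100a8 had 6, 12 and 6 counts in IC and 0 in each vehicle library. In the lymphocyte sum, Ighm had 0.653 to 1.56 CPM in IC and 3.99 to 5.98 in vehicle, whereas Cd79a and Cd4 overlapped between the groups. Vehicle 1 stood apart in that the gene Gm42418 took 0.964% of its counts, against 0.375% to 0.553% in the other 5 libraries.

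Levels can be compared between genes only per length, so each count was divided by the size factor of its library and by the kilobases of exon of its gene. On this scale the 2 receptors that work inside the cell stood above the Fcγ receptors of the surface. Fcgrt had a level of 4350 ± 479 (SD over the 6 libraries), above 98.7% of 23865 genes with a length. Trim21 followed at 245 ± 42.6, above 70.2% of genes, and Syk at 71.6 ± 19.3, close to the middle of all genes at 47.9%. Fcer1g was at 33.2 ± 15.7, Plcg2 at 12.9 ± 4.49 and Inpp5d at 7.79 ± 2.04. The lowest levels were those of Fcgr3, 4.02 ± 3.69, and Fcgr2b, 2.60 ± 1.94, which exceeded 11.9% and 8.1% of genes. Fcgrt was 17.8-fold above Trim21 and Trim21 was 3.42-fold above Syk, and in neither pair did the ranges over the 6 libraries overlap. The other 5 neighbouring pairs in the order overlapped in range, so their order is not separated by these libraries. In bulk RNA, fewer cells of a type and less RNA per cell cannot be told apart.

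**Figure D1:**
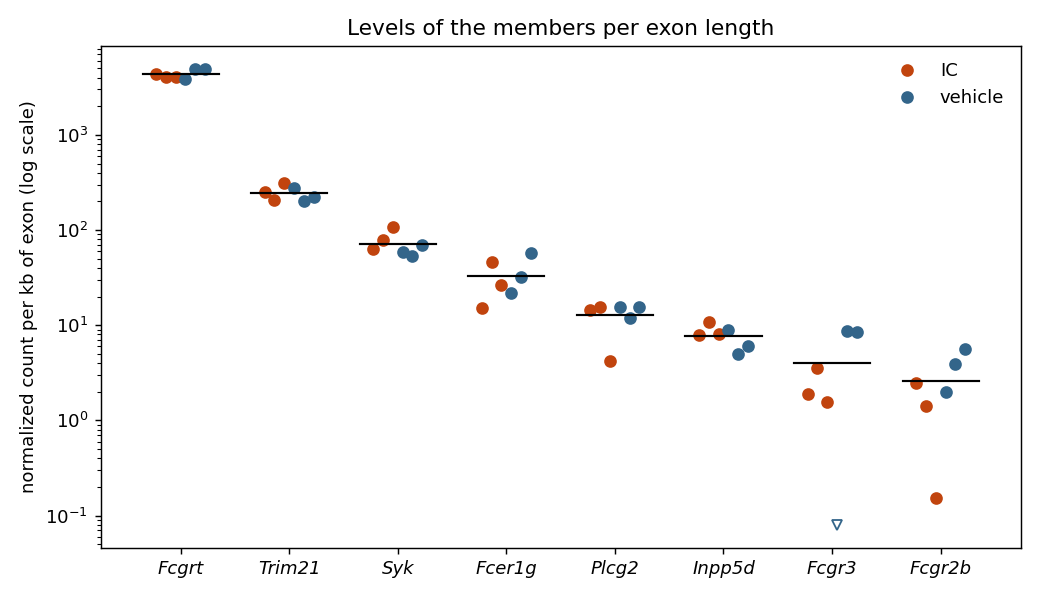
Level of each of the 8 members with counts (normalised count per kilobase of exon, log scale) in 3 IC (orange) and 3 vehicle (blue) libraries, with a horizontal line at the mean of the 6. The open triangle is the vehicle library in which Fcgr3 had a count of 0. Fcgrt lies above Trim21 and Trim21 above Syk without overlap, and the remaining neighbours overlap.

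None of the 7 members tested changed between IC and vehicle at an adjusted p under 0.05 by DESeq2. Of all 19925 tested genes, 2.1% were called. The Benjamini-Hochberg adjustment followed the default filtering, which left 3870 tested genes without an adjusted p. Fcgr3 was not tested in this fit because only 2 libraries reached 10 counts, and Fcgr2b and Fcer1g were fitted but given no adjusted p at their low counts. edgeR and limma-voom also called 0 members, and edgeR called 0.186% of all genes. Of the members, Syk alone had an unadjusted p under 0.05 by each of the 3 tools, where 9.8% of all genes had such a p by DESeq2. In 0 of the 8 members were the IC and vehicle libraries without overlap, against 15.8% of all tested genes. Among the 7 fold changes 3 were above 0 and 4 below.

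**Figure D2:**
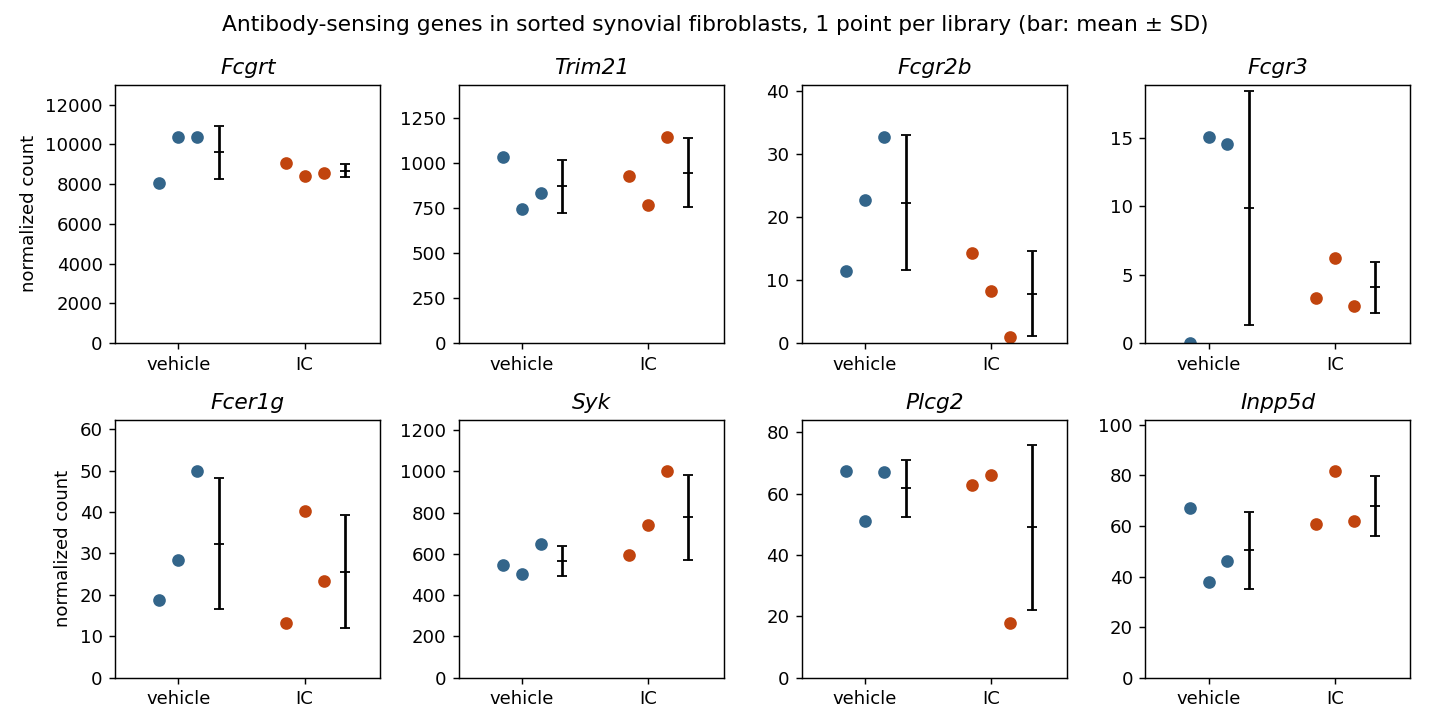
Normalised count (count divided by the size factor of its library, vertical axis from 0) of the 8 members in each of the 3 vehicle (blue) and 3 IC (orange) libraries; the bar beside each group is its mean ± SD. The groups overlap in every panel.

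Fcgrt, at chr7:45092990-45103851 on GRCm38 (minus strand, GENCODE gene ENSMUSG00000003420.8), had normalised counts of 9058, 8434 and 8570 in the IC libraries and 8071, 10370 and 10400 in the vehicle libraries. Vehicle 1 lay below every IC library and the other two vehicle libraries lay above them, so the groups overlapped. The means were 8687 ± 328 (SD, n = 3) and 9613 ± 1336 (SD, n = 3). The log2 fold change was -0.15 (SE 0.10, DESeq2 adjusted p = 0.680), and its 95% interval covered 0.788-fold to 1.04-fold. Vehicle 1 changed the call. Without it the log2 fold change was -0.26 with a DESeq2 adjusted p of 0.0142, the single call of a member in any DESeq2 fit with a library left out, while edgeR gave -0.255 and an adjusted p of 0.146 on the same 5 libraries. Over all alternatives the adjusted p for Fcgrt ran from 0.0142 to 0.951. The summed fibroblast markers, mostly collagen genes and Dcn, were likewise highest in vehicle 2 and vehicle 3. They took 55200 and 53600 CPM there, against 45400 in vehicle 1. Prg4 and Pdpn, of the same markers, were instead highest in IC 3. The part of the fibroblast markers in the Fcgrt values was not tested. The antisense gene Gm45669 overlaps Fcgrt and had 95 counts in all against 55317 for Fcgrt, or 0.172%. The use of strand in counting is not given, so these counts cannot give the antisense share of the reads.

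B2m, which encodes the β2-microglobulin partner of FcRn, had normalised counts of 10310, 8473 and 12540 in IC and 11110, 13020 and 11220 in vehicle. The groups overlapped here too, with a log2 fold change of -0.17 (SE 0.12, DESeq2 adjusted p = 0.677). Per kilobase of exon, the Fcgrt level was 33.7% of the B2m level. The ratio of Fcgrt to B2m counts was 0.879, 0.995 and 0.683 in IC and 0.726, 0.797 and 0.927 in vehicle, and IC 3 had the lowest ratio and IC 2 the highest. The trafficking list, which holds B2m and the Rab, sorting nexin, retromer and EHD genes of the recycling endosome, had 20 of 20 genes tested. DESeq2 and edgeR called 0 in either direction, and 1 had an unadjusted p under 0.05, beside 9.8% of all tested genes by DESeq2. Its fold changes were above 0 for 8 genes and below 0 for 12, with a median log2 fold change of -0.03 beside -0.002 over all tested genes. Among 13434 genes, those whose centred log2 values were most like Fcgrt over the 6 libraries were Gm9843, Magee1 and Slc29a3, a lysosomal nucleoside transporter gene. Their root mean square differences from it were 0.0303, 0.0306 and 0.0327 log2 units, and they were picked for this likeness.

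Trim21, at chr7:102557921-102565486 (minus strand), had normalised counts of 927.8, 768.0 and 1149 in the IC libraries. The vehicle libraries had 1033, 747.2 and 834.1. IC 3 was the highest of the 6 and vehicle 1 the next, and the lowest IC and lowest vehicle values were close to each other. Means were 948.2 ± 191.2 (SD, n = 3) in IC and 871.5 ± 146.6 (SD, n = 3) in vehicle, and the log2 fold change was 0.12 (SE 0.18, DESeq2 adjusted p = 0.911). The 95% interval ran from 0.856-fold to 1.38-fold, so a rise of more than 1.38-fold lies outside it. Without IC 3 the estimate turned to -0.04, with a DESeq2 adjusted p of 0.983, and over all alternatives the adjusted p ran from 0.570 to 1. The genes most like Trim21 over the 6 libraries were 2010315B03Rik, Nhp2, a gene of small nucleolar ribonucleoproteins, and Hgf, the growth factor gene. Their root mean square differences were 0.0615, 0.0650 and 0.0689 log2 units.

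Interferon-induced genes gave the background for Trim21, as its promoter carries the ISRE-type run shown above. Of 25 interferon response genes tested, 4 rose and 0 fell, 25 of 25 fold changes were above 0 and the median log2 fold change was 0.62, with 16 genes at an unadjusted p under 0.05 and 0 called by edgeR. Over all tested genes, DESeq2 called 2.1%, 9.8% had an unadjusted p under 0.05 and 49.6% of fold changes were above 0. The 4 called genes were Mx2 and Oas1a, which encode antiviral effectors, Stat2, which encodes a transcription factor of interferon signalling, and Zbp1, which encodes a sensor of nucleic acids. Mx2 rose from 1969 ± 143.4 to 2859 ± 471.6 (SD, n = 3 each; log2 fold change 0.54, DESeq2 adjusted p = 0.00231) and Stat2 from 5514 ± 392.5 to 7975 ± 1673 (0.53, adjusted p = 0.00197). Oas1a rose from 178.3 ± 32.5 to 403.4 ± 219.6 (log2 fold change 1.18, DESeq2 adjusted p = 0.0176), and its IC 3 value of 653.3 stood above 316.3 in IC 1 and 240.8 in IC 2. Zbp1 rose from 656.0 ± 48.2 to 1082 ± 449.9 (0.72, DESeq2 adjusted p = 0.0449). Without IC 3, 1 gene of the list was called and the median fell to 0.27, and without vehicle 3 likewise 1 was called. The count was 2 without vehicle 2 and 8 without IC 2. Stat2 was called in 5 of the 6 fits with a library left out (not without vehicle 2), Mx2 and Oas1a in 4 (not without IC 3 or vehicle 3) and Zbp1 in 2 (without IC 1 or IC 2). Trim21 had a log2 fold change of 0.12 beside a median of 0.62 for the list, a difference between a gene and a list that was not tested.

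Other TRIM genes known to respond to interferon had a median between these values. Of 13 tested, 0 were called by DESeq2 or edgeR and 3 had an unadjusted p under 0.05, beside 9.8% of all tested genes by DESeq2. Fold changes were above 0 for 8 and below for 5, with a median log2 fold change of 0.23, or 0.05 without IC 3. The most abundant members were Trim56, at -0.01 (SE 0.09, DESeq2 adjusted p = 0.995), and Trim25, a ligase of the RIG-I antiviral pathway, at 0.27 (SE 0.14, DESeq2 adjusted p = 0.450). Several mouse Trim genes of this list are near-identical copies, and how reads shared between them were counted is not stated. By promoter windows, 8 of 13 windows of these TRIM genes (61.5%) and 9 of 18 windows of the interferon response list (50%) held the ISRE-type motif. The motif was in 0 of 29 windows of the TRIM21 pathway genes and 0 of 45 windows of the Fc receptor signalling genes. It was in 2 of 16 windows of the trafficking list. For other ITAM adaptors and receptors it was 1 of 20, and for other antibody receptors 1 of 17. Over all RefSeq windows the share was 3.44%. In the single libraries, centred on the mean of the 6, the interferon response list was at 0.10, -0.20 and 1.08 log2 units in IC and -0.49, -0.13 and -0.37 in vehicle. Trim21 was at 0.05, -0.23 and 0.35 in IC and 0.20, -0.27 and -0.11 in vehicle. Trim21 and the list were thus both highest in IC 3, whereas in vehicle 1 Trim21 was at its second highest and the list at its lowest. Fcgrt was at -0.09 in IC 3.

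**Figure D3:**
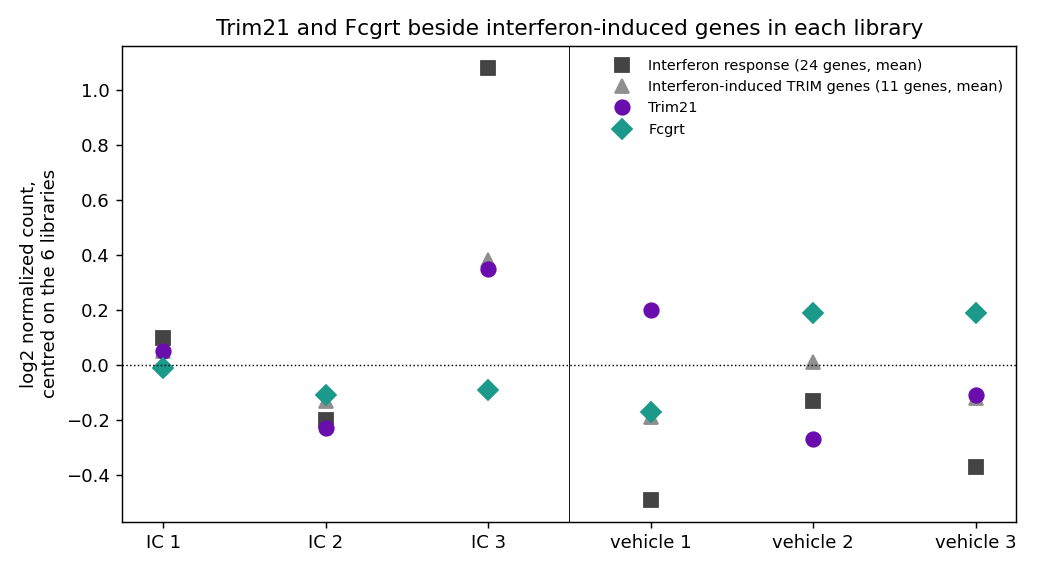
Log2 normalised count centred on the mean of the 6 libraries (vertical axis) for Trim21, Fcgrt, and the means of 24 interferon response genes and 11 interferon-induced TRIM genes with a mean normalised count of at least 100, in each IC and vehicle library (horizontal axis). The interferon response mean is at 1.08 in IC 3, where Trim21 is at 0.35, and Trim21 is at 0.20 in vehicle 1, where the interferon response mean is at -0.49.

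The genes that act with TRIM21 were the ubiquitin-conjugating enzymes of its chain assembly, proteasome partners, signalling genes, and Ro60 and Ssb, which encode the Ro and La autoantigens. The list held 27 symbols, of which Trove2 is another name of Ro60, and all 26 genes were tested. None was called by DESeq2 or edgeR or had an unadjusted p under 0.05. Fold changes were above 0 for 16 and below 0 for 10, with a median log2 fold change of 0.04. Ube2d3, a ubiquitin-conjugating enzyme gene and the most abundant, had normalised counts of 35120 ± 3070 in IC and 32170 ± 4509 in vehicle (SD, n = 3 each; log2 fold change 0.13, DESeq2 adjusted p = 0.750). Vcp, which encodes the unfolding ATPase that TRIM21 needs to degrade its targets, had 9101 ± 704.0 and 8611 ± 502.4 (SD, n = 3 each; 0.08, DESeq2 adjusted p = 0.859).

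The surface Fcγ receptors were at the limit of counting. Fcgr2b, the inhibitory receptor gene at chr1:170958617-170976547, had 13, 8 and 1 counts in IC and 14, 24 and 27 in vehicle. Divided by size factors these were 14.3, 8.27 and 0.896 against 11.5, 22.7 and 32.8, so that vehicle 1 fell within the IC range. The log2 fold change was -1.52 (SE 1.02) with an unadjusted DESeq2 p of 0.138, no DESeq2 adjusted p, and an edgeR adjusted p of 0.708. Its 95% interval, -3.53 to 0.49, includes 0. Leaving out each library in turn gave -2.30, without IC 1, to -0.98, without IC 3. Fcgr3, the activating receptor gene at chr1:171051174-171064935, had 3, 6 and 3 counts in IC and 0, 16 and 12 in vehicle. In 3 of its 6 libraries it was at or under 3 counts, taken as the floor, and the count of 0 in vehicle 1 allows up to 3. Without the count filter its log2 fold change was -1.28, with an unadjusted DESeq2 p of 0.398 and no adjusted p. Both genes had fewer summed counts in IC, 22 against 65 for Fcgr2b and 12 against 28 for Fcgr3. They were the only pair of the 45 pairs of members to share stretches of 50 bases in their transcripts, with 9.58% of the stretches of Fcgr3 and 2.92% of those of Fcgr2b, so a part of their counts could be split between them.

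Fcer1g, which encodes the γ-chain and lies at chr1:171229572-171234365, had 12, 39 and 26 counts in IC and 23, 30 and 41 in vehicle. Normalised, these were 13.2, 40.3 and 23.3 against 18.9, 28.3 and 49.9. The groups overlapped widely, and the log2 fold change was -0.33 (SE 0.71) with an unadjusted DESeq2 p of 0.642 and an edgeR adjusted p of 0.938. Without vehicle 3 it was 0.12. Which cells held the transcripts of the γ-chain and of both Fcγ receptor genes was not tested. Of 20 other ITAM adaptor and receptor genes, 5 had counts and 2 were tested, Cd79a and Oscar, with log2 fold changes of -0.38 (DESeq2 adjusted p = 0.836) and -0.71 (no DESeq2 adjusted p; edgeR adjusted p = 0.820). Of 15 receptors for other antibody classes and Fc receptor-like genes, Fcgbp and Fcamr had counts and neither reached the count minimum for testing.

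Syk, the kinase gene at chr13:52583173-52648792, gave the smallest p-value of the members. It had normalised counts of 592.8, 738.0 and 1000 in the IC libraries and 545.3, 502.5 and 645.6 in the vehicle libraries. IC 2 and IC 3 lay above every vehicle library, while IC 1 lay below vehicle 3. Means were 777.0 ± 206.4 and 564.5 ± 73.5 (SD, n = 3 each). The log2 fold change of 0.46 (SE 0.20) is 1.38-fold, with a 95% interval from 1.05-fold to 1.81-fold. The unadjusted p was 0.0196 by DESeq2, 0.0319 by edgeR and 0.0294 by limma-voom, and the adjusted p was 0.273, 0.451 and 0.413, so the difference did not pass the correction. Leaving out each library in turn gave log2 fold changes from 0.24 to 0.62 and adjusted p from 0.0933 to 0.810. IC 3, in which Syk was highest, was also the library with the highest interferon response, and the part of that difference in the Syk values was not tested.

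Plcg2, the phospholipase gene at chr8:117498291-117635142, had normalised counts of 62.8, 66.2 and 17.9 in IC and 67.2, 51.0 and 66.9 in vehicle. IC 3 was low and the other 5 libraries lay close together. The log2 fold change was -0.34 (SE 0.55, DESeq2 adjusted p = 0.926), and 0.06 without IC 3 (adjusted p = 0.990). Inpp5d, which encodes SHIP-1 and lies at chr1:87620312-87720507, had 60.6, 81.7 and 61.8 in IC and 67.2, 37.8 and 46.2 in vehicle. Vehicle 1 lay within the IC range and the other two vehicle libraries under it. The log2 fold change was 0.43 (SE 0.46, DESeq2 adjusted p = 0.859), with a 95% interval from -0.48 to 1.34.

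**Figure D4:**
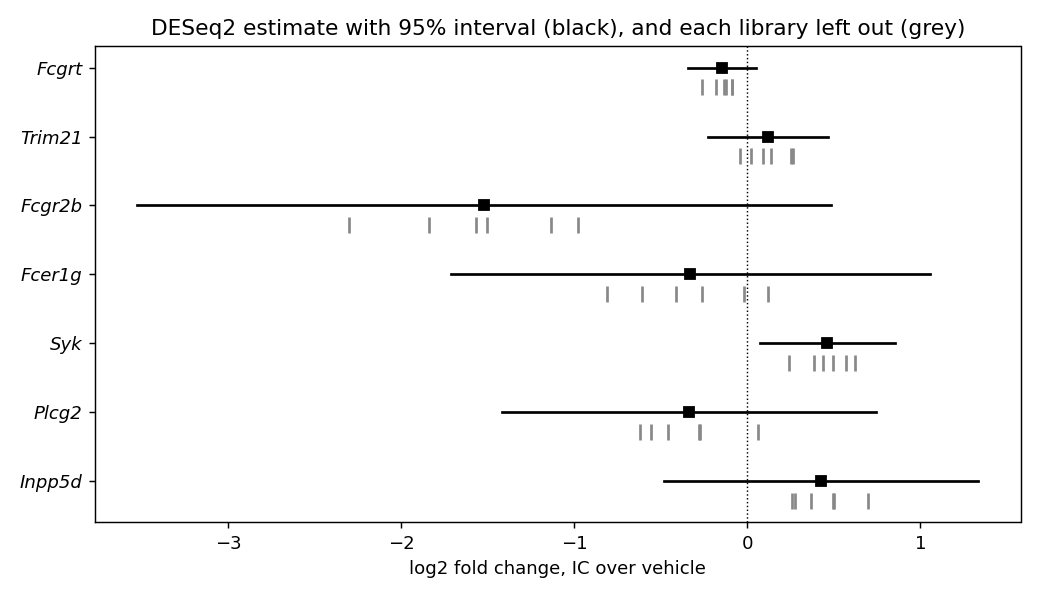
Log2 fold change of IC over vehicle (horizontal axis) for the 7 tested members: black squares are DESeq2 estimates with 95% intervals, and grey ticks under each are the estimates with 1 of the 6 libraries left out. The intervals of 6 members include 0 and that of Syk runs from 0.07 to 0.85 before adjustment for the number of genes; leaving out a library turned the sign for Trim21, Fcer1g and Plcg2.

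Downstream of the Fcγ receptors, the list of kinases, adaptors, lipid enzymes, phosphatases and GTPase regulators had 40 of 45 genes tested. By DESeq2, 2 rose and 1 fell, 0 were called by edgeR and 5 had an unadjusted p under 0.05. Over all tested genes, DESeq2 called 2.1% and gave 9.8% an unadjusted p under 0.05. The fold changes were above 0 for 22 genes and below 0 for 18, and the median log2 fold change was 0.02. Pik3r5, which encodes a regulatory subunit of phosphoinositide 3-kinase γ, had normalised counts of 223.7, 303.9 and 224.9 in IC and 132.0, 137.0 and 138.6 in vehicle. All 3 IC libraries lay above all 3 vehicle libraries, and the log2 fold change was 0.88 (SE 0.26, DESeq2 adjusted p = 0.0355; edgeR 0.159). Genes named from this list were picked for their calls in the same fit, and 15.8% of all tested genes had groups without overlap. Nfatc1, which encodes a transcription factor switched on by calcium, had 11740, 12470 and 10210 in IC and 9573, 8500 and 8247 in vehicle. The groups did not overlap, and the log2 fold change was 0.39 (SE 0.095, DESeq2 adjusted p = 0.00402; edgeR 0.140).

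Blnk, which encodes an adaptor that links SYK to phospholipase Cγ2 in B cells, had 19.8, 25.8 and 40.3 in IC and 121.4, 64.2 and 88.8 in vehicle. It fell by 1.67 on the log2 scale (SE 0.50, DESeq2 adjusted p = 0.0362; edgeR 0.186), and the groups did not overlap. Ighm, the IgM heavy chain gene and a B cell marker, also fell, from 230.9 ± 42.7 to 58.6 ± 24.0 (SD, n = 3 each). Its log2 fold change was -1.98, with an adjusted p of 1.86e-05 by DESeq2, 0.0541 by edgeR and 0.0441 by limma-voom. The B cell marker Cd79a had 102.5, 120.9 and 58.3 in IC and 136.1, 106.7 and 124.0 in vehicle, which overlapped (log2 fold change -0.38, DESeq2 adjusted p = 0.836). The part of B cell transcripts in the Blnk difference was not tested. With 1 library left out these 3 genes kept their direction but mostly lost their calls. Pik3r5 was called in 0 of the 6 fits, with log2 fold changes of 0.72 to 0.96 (DESeq2 adjusted p 0.0566 to 0.296). Nfatc1 kept its call only without IC 3 or without vehicle 1, with log2 fold changes of 0.32 to 0.46 over the 6 fits (DESeq2 adjusted p 0.00019 to 0.105). Blnk kept its call only without IC 3 or without vehicle 2, with log2 fold changes of -2.00 to -1.41 (DESeq2 adjusted p 0.0187 to 0.176).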

How the data were processed

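RNA from sorted synovial fibroblasts was measured in 3 IC and 3 vehicle libraries, grouped by their labels. The authors deposited raw counts of reads per gene, made by trimming with Trim Galore, quality checks with FastQC, alignment to mm10 with HISAT2 and counting with featureCounts. Versions, annotation and the use of strand are not given in the sources used here, so sense and antisense genes cannot be separated. The labels name a stranded Illumina kit and the study's methods a SMARTer pico kit; removal of batch effects with sva is stated without settings, and no batch is labelled. The methods also describe an antibody block of Fcγ receptors at staining. Each per-sample file was identical to its column of the table, and each gene of the table had reads in 3 or more libraries.

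A gene was tested if 3 or more libraries held 10 or more counts for it (19925 genes). The test was the Wald test of DESeq2 (version 1.42.0, R 4.3.3, treatment as the only term, default size factors and filtering), and a gene counted as called below 0.05 after Benjamini-Hochberg adjustment. The filter left out 4423 genes with 0.0429% of counts, and 3870 tested genes had no adjusted p. Normalised counts are counts divided by the size factor, and log2 fold changes are unshrunken. Alternatives were edgeR's quasi-likelihood test (version 4.0.16), limma-voom (version 3.58.1), scaling by TMM or by totals, omission of the count filter or of independent filtering, a replicate block, an sva (version 3.50.0) fit with 1 surrogate variable, and each library left out; edgeR without vehicle 1 was added for Fcgrt after seeing the data. The fits were tested on simulated data. The floor of 3 counts covers counting error only.

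Gene positions and exon lengths came from GENCODE M21 (GRCm38, the assembly of mm10), which held 23865 of the symbols (98.0%), and promoters from RefSeq (GRCm38.p6), in which all 10 members matched. The members and gene lists were chosen with earlier results of these data known. Named beside the members were the called genes of each pathway list or, where none was called, the 2 most abundant tested genes, the 3 genes most like Fcgrt and most like Trim21 with a mean normalised count of at least 100, and B2m. A gene named by this rule is not reported here. Csf1r, Cd68, Lyve1, C1qb, C1qc, Cx3cr1, Mrc1, Lyz2, Kit, S100a8, Cd4, Ighm, Prg4, Col3a1, Lum, Gm42418 and Gm45669 were named after their values were seen. So were Kdr, Col1a1, Col1a2, Dcn and Pdpn.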

Additional observations from a re-analysis of the deposited data

How the results depend on the processing

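Of 99 fold changes of the 7 tested members under the alternatives, 96 kept their direction. An adjusted p was given for 80 of them, and 1 passed the threshold, that of Fcgrt without vehicle 1 in DESeq2; the 19 without one were of Fcgr2b, Fcer1g and, without IC 2, Plcg2. The 3 changes of sign were of Trim21 without IC 3, of Plcg2 without IC 3 and of Fcer1g without vehicle 3. With each library left out, log2 fold changes ran from -0.041 to 0.262 for Trim21, from -0.621 to 0.064 for Plcg2 and from -0.812 to 0.121 for Fcer1g. The number of members called was 0 under every alternative except in the fits that left out a library, where it was 0 to 1. The number of genes called in all was 419 by DESeq2 (205 higher and 214 lower), 37 by edgeR (12 higher and 25 lower) and 62 by limma-voom (25 higher and 37 lower), and 281 to 677 with a library left out, with the 677 calls made without vehicle 1. Scaling by TMM (427) or totals (439), omission of the count filter (417) or of independent filtering (372), and 1 surrogate variable (334) stayed within 1.5 times; that variable took its largest value in vehicle 2. Of 126 tested genes of the pathway lists, 7 were called by DESeq2, 0 by edgeR, 0 by limma-voom and 1 to 8 with a library left out, with 1 call left without vehicle 3, 3 without IC 3 or vehicle 2 and 4 without vehicle 1. Neighbouring pairs of members with overlapping levels numbered 5 on the length of all exons and 3 on the length of the longest transcript, in the same order of genes, and 4 to 5 with a library left out. The cause of these shifts was not tested.

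Deviations from the group means correlated at -0.092, -0.164 and 0.025 between IC and vehicle libraries of number 1, 2 and 3 over 13435 genes. Libraries of unlike number gave -0.123 to 0.243. With 3 libraries per group, these values cannot show whether the replicate numbers pair libraries. With the replicate block, 320 genes, 0 members and 3 pathway genes were called. Fcgr2b, Fcgr3 and Fcer1g had 0 to 41 counts per library. The standard errors of Fcgr2b and Fcer1g were the largest of the 7 tested members, and Fcgr3 was fitted only without the count filter.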
